A study of Mus musculus with 9 samples.

Results

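Genes for ribosome biogenesis and other nucleolar proteins were compared between sorted mouse pancreatic ductal adenocarcinoma (PDAC) cells with and without Yap. The set holds 51 genes, chosen by name for the role of their proteins in making ribosomes. It was drawn up with earlier results of these data known. The files hold 47643 genes, of which 14105 had enough reads to be tested. All 51 were found by symbol, passed the filter on low counts and were counted in every library, with a smallest count of 20 reads.

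Ribosomes are built in the nucleolus. RNA polymerase I transcribes the ribosomal RNA precursor, small nucleolar ribonucleoproteins (snoRNPs) guide the methylation and pseudouridylation of its nucleotides, and separate sets of assembly factors cleave and fold it into the small and the large subunit. Many genes of this pathway are known targets of the transcription factor Myc, which with its partner Max binds the DNA sequence CACGTG, called an E-box, and ribosome production is generally high in dividing tumor cells.

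The libraries came from FACS-sorted tumor cells of KPF mice, which carried Pdx-Flp, R26 FSF-CreER/Dual and Trp53 frt/+, and of KPYYF mice, which had these alleles plus Yap flox/flox. In both, Flp recombinase driven by a Pdx1 promoter, active in pancreatic progenitors, deletes a copy of Trp53 and marks the cells with EGFP, so that the controls share these changes. A tamoxifen (TAM) diet given once tumors could be felt activates CreER, which removes EGFP, switches on tdTomato (Tm) and, in KPYYF cells alone, deletes Yap. The study describes the mice of both groups as treated with TAM. The 6 KPF libraries are of GFP+Yap+ cells, in which this switch had not occurred, and the 3 KPYYF libraries are of Tm+Yap- cells. The study describes the Tm+Yap- cells as taken from nodules that had grown back during TAM, which arose in a part of the KPYYF mice, so these libraries are of an outgrowth and not of cells that had just lost Yap. Whether the GFP+ cells also came from such nodules is not clear from its wording. Genotype, Yap status, reporter color, the occurrence of Cre recombination and any difference in outgrowth or time on TAM between the groups therefore cannot be told apart. Each library bears a mouse number, and KPF libraries 4504h and 4504s share one. Ages were not given in the labels.

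RNA was read from its 3′ ends. Between 8264587 and 9635514 reads fell on genes in KPF libraries, and 8116539, 8685875 and 8725132 in KPYYF libraries 4449, 4891 and 4938. Values are given as CPM, read counts brought to a common library size with TMM factors. A value after ± is an SD where a level is given and the standard error (SE) where a log2 fold change or difference is given. Yap1, the deleted gene, was at 41.8 to 151 CPM in KPF libraries and at 0.712, 2.84 and 7.12 CPM in KPYYF libraries (log2 fold change -4.79, adjusted p = 0.0159 with edgeR). Over all alternatives this p was 8.27e-13 to 0.0771, and it was 0.0553 without KPYYF library 4891. Of 10 PDAC epithelial markers, all 10 had a log2 fold change below 0 and 3 passed the adjustment, and their summed level was 3867 to 12642 CPM in KPF and 679 to 2322 CPM in KPYYF libraries. All 8 immune markers tested were below 0, and their sum reached 8250 CPM in KPF library 4601 and 2528 CPM in 4504s, against 414 to 716 CPM in KPYYF libraries. Of 8 acinar markers 4 were above 0, and their sum reached 20085 CPM in KPF library 4504s and 6026 CPM in KPYYF library 4449. Of 10 fibroblast markers 6 were above 0, and their sums were 424 to 5608 CPM in KPF and 1146 to 3249 CPM in KPYYF libraries. Summed endothelial, islet, Schwann and red blood cell markers were at most 68.0, 74.1, 254 and 260 CPM in KPF and 14.8, 20.4, 18.0 and 111 CPM in KPYYF libraries, and the Schwann cell markers Sox10 and Cdh19 had no count. Mice of both sexes were used, and reads of Xist, which coats the inactive X, numbered 71 to 159 in KPF libraries 4269, 4515 and 4601 and 3452 to 16108 in the other 6. The part of these marker and Xist differences in the values below was not tested, beyond the fits without these libraries and with a Xist term.

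Most ribosome biogenesis genes had a fold change above 0 in the cells without Yap, and no single one passed the adjusted test. For 46 of the 51 members the log2 fold change, KPYYF minus KPF, was above 0, where 46.7% of all genes tested were above 0. Its median over the members was 0.57, a 1.48-fold difference, and over all genes tested it was -0.07. The middle portion of the members, between the quartiles, ran from 0.29 to 0.82, and the extremes were Utp18, with -0.26, and Npm3, with 1.53. In bulk RNA of a sorted population, a larger share of cells with high levels and more RNA per cell cannot be told apart.

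After Benjamini-Hochberg adjustment of edgeR's quasi-likelihood p over the 14105 genes, 0 members had an adjusted p under 0.05 in either direction, and the smallest adjusted p was 0.0932. Over all genes, 0.305% were higher and 0.794% were lower at this threshold. At an unadjusted p under 0.05, 17 of the 51 members were higher, against 6.10% of all genes, and 0 were lower, against 10% of all genes. With a more than 2-fold difference in addition, 7 members were higher, against 4.20% of all genes. The DESeq2 Wald test put 4 members, Rrp1b, Nop2, Ddx56 and Npm3, at an adjusted p under 0.05, against 1.96% of all genes. With limma-voom the count was 0, against 0.305%. The number with an unadjusted p under 0.05 was 6 without KPYYF library 4938, 12 with a term for Xist in the fit and 13 in the 6 libraries with Xist reads alone. In the same fits 4.77%, 3.76% and 5.09% of all genes were higher at this threshold.

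The values of single libraries were also compared without a model. In 8 members (Rrp1b, Nop2, Ddx56, Ncl, Dkc1, Ddx21, Tsr1 and Fbl) every KPYYF library lay above every KPF library, against 3.92% of all genes, and in 0 members every KPYYF library lay below, against 5.18% of all genes. Without KPF libraries 4504s and 4601, which had the highest acinar and immune markers, the first count was 15, against 6.89% of all genes, and in the 6 libraries with Xist reads it was 18, against 8.78%. With fewer libraries an overlap is less likely for any gene. The highest of the 9 values belonged to a KPYYF library in 40 of the 51 members, against 38.4% of all genes tested, and the lowest to a KPF library in 44, against 50%.

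**Figure D1:**
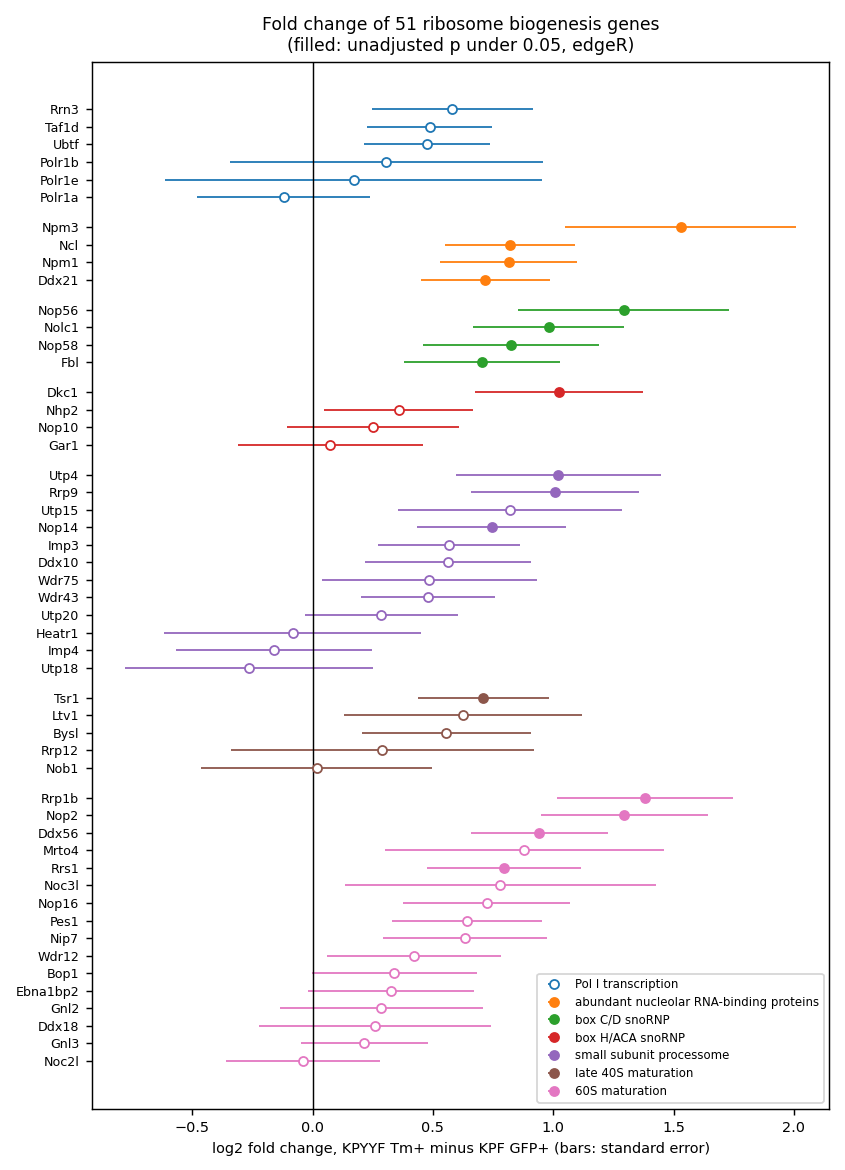
Log2 fold change (KPYYF Tm+ minus KPF GFP+, x axis) of each of the 51 genes, grouped and colored by role. Points are edgeR estimates, bars are standard errors, and filled points have an unadjusted p under 0.05. 46 of 51 points lie right of 0, and all 8 genes of the nucleolar RNA-binding and box C/D groups are filled.

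KPYYF library 4938 carried the highest levels. It held the highest of the 9 values for 25 members, library 4449 for 8 and library 4891 for 7, against 10.4%, 16.0% and 12.0% of all genes tested. KPF libraries 4269, 4504h and 4601 held it for 5, 3 and 3 members, against 14.0%, 8.12% and 14.2% of all genes. Only library 4938 was thus well above its share of all genes. Counted member by member against all 6 KPF libraries, 33 of the 51 were above every one of them in library 4938, 20 in 4449 and 18 in 4891, against 17.4%, 20.8% and 18.7% of all genes tested. Summed over the 51 genes, the KPF libraries 4269, 4435, 4504h, 4504s, 4515 and 4601 had 6004, 4220, 5418, 5451, 3959 and 5291 CPM. The KPYYF libraries 4449, 4891 and 4938 had 7463, 7468 and 9360 CPM. The groups did not overlap in this sum, of which nucleolin alone made up 23.4% to 37.0%. Without Ncl the sums were 3034 to 4095 CPM in KPF and 4708 to 6403 CPM in KPYYF libraries, again without overlap.

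**Figure D2:**
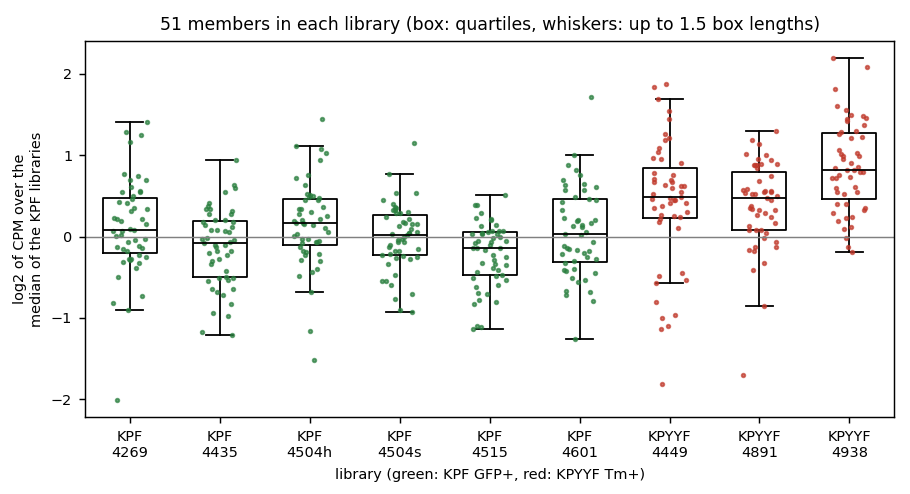
Log2 of each member's CPM over its median in the KPF libraries (y axis), for the 51 genes in each of the 9 libraries (x axis). Boxes are quartiles around the median and whiskers reach up to 1.5 box lengths. The medians are between -0.14 and 0.17 in KPF libraries and 0.49, 0.48 and 0.82 in KPYYF libraries 4449, 4891 and 4938.

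The promoters of the members are shown for those with the smallest p, since E-boxes bear on whether genes of this pathway share a binding sequence. RefSeq windows from 250 bases before to 50 bases after the annotated start (GRCm38.p6) were at hand for 45 of the 51 members, in 54 windows. CACGTG, which reads the same on both strands, was in a window of 10 of the 45 (22.2%), namely Rrn3, Utp4, Utp18, Utp20, Wdr43, Imp4, Tsr1, Ltv1, Pes1 and Nop2. It was in 11.6% of the 10300 tested genes with a window and 8.09% of all 27025. A GC box (GGCGGG or its reverse complement CCCGCC) was in 66.7% of members, 66.6% of tested genes and 37.9% of all genes. The 10 members with an E-box had a median log2 fold change of 0.60 and the 35 without one 0.56. Of them 3 and 11 were higher at an unadjusted p under 0.05, against 6.10% of all genes tested. Such matches are letters in a window, not measured binding.

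The stretches begin 100 bases before the annotated start and end before the first base of any annotated transcript of the gene. They are read 5′ to 3′ on the gene's strand, with an E-box or GC box in capitals. Nop2 lies on the plus strand at chr6:125131783-125131882, Npm3 on the minus strand at chr19:45749592-45749665, Rrp1b on the plus strand at chr17:32036062-32036099 and Ddx56 on the minus strand at chr11:6267773-6267829.
Nop2: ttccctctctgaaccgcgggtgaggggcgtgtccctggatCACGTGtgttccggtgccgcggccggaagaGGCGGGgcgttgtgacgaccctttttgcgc
Npm3: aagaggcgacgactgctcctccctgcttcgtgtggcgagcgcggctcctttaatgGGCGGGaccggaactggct
Rrp1b: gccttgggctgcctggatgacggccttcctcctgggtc
Ddx56: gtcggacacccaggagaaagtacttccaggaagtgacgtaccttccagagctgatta
Nop2 had both motifs in its stretch, with the E-box starting at position -60, and Npm3 had a GC box. In Rrp1b and Ddx56 neither was within the stretch shown, and a GC box was elsewhere in a window of each.

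Large subunit assembly held the 3 members with the smallest p, Rrp1b, Nop2 and Ddx56. Of its 16 genes, 15 had a log2 fold change above 0, against 46.7% of all genes tested, and the median was 0.64. At an unadjusted p under 0.05, 4 of them were higher, against 6.10% of all genes. Rrp1b (ENSMUSG00000058392, chromosome 17, 32036100 to 32062865), a nucleolar protein of pre-ribosomal particles, was at 20.9, 20.5, 39.4, 39.1, 51.2 and 60.1 CPM in KPF libraries 4269, 4435, 4504h, 4504s, 4515 and 4601. It was at 107, 89.2 and 105 CPM in KPYYF libraries 4449, 4891 and 4938. The KPF libraries spread over 2.93-fold, the KPYYF libraries over 1.20-fold, and the groups were well separated. The means were 38.5 ± 15.9 CPM (SD, n = 6) and 100 ± 9.72 CPM (SD, n = 3), and the log2 fold change was 1.38 (SE 0.37). Its adjusted p was 0.0932 with edgeR and 0.0156 with DESeq2, within 0.0156 to 0.214 over all alternatives. The exact permutation test, here and below two-sided and on log2 CPM, gave p = 0.0119. This is the smallest p that the 84 divisions of 9 libraries into 6 and 3 can give. Exons of Rrp1b overlap those of Hsf2bp on the opposite strand.

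Nop2 and Ddx56 showed the same separation. Nop2, an RNA methyltransferase of the large subunit rRNA and a long-used proliferation antigen, was at 33.9, 45.2, 44.2, 35.8, 16.2 and 28.7 CPM in the KPF libraries, in the order given for Rrp1b. It was at 101, 67.7 and 81.2 CPM in the KPYYF libraries (difference of 1.29 ± 0.35 on the log2 scale, adjusted p = 0.0933 with edgeR and 0.0156 with DESeq2, or 0.0156 to 0.355 over all alternatives). The lowest KPYYF library was thus above the highest KPF library. Ddx56, an RNA helicase of large subunit assembly, was at 34.1 to 58.4 CPM in KPF libraries and at 102, 82.6 and 73.3 CPM in KPYYF libraries (difference of 0.94 ± 0.29 on the log2 scale, adjusted p = 0.127 with edgeR and 0.0354 with DESeq2, or 0.0354 to 0.304 over all alternatives). The last of the 4 was Rrs1, a factor for loading the 5S particle, with a log2 fold change of 0.80 and overlapping groups.

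The PeBoW complex, made of Pes1, Bop1 and Wdr12, is needed for processing of the large subunit rRNA. Its members had log2 fold changes of 0.64, 0.34 and 0.42, with unadjusted edgeR p of 0.0602, 0.338 and 0.264. The GTPases Gnl3 (nucleostemin) and Gnl2 had 0.21 and 0.29. Noc2l (ENSMUSG00000095567, chromosome 4, 156236010 to 156247616), an assembly factor of pre-60S particles, was the member of the group with the smallest fold change. It was at 73.6, 92.3, 81.8, 78.2, 72.6 and 88.0 CPM in KPF libraries and at 39.9, 111 and 85.5 CPM in KPYYF libraries, and its log2 fold change was -0.04 (SE 0.32, adjusted p = 0.974 with edgeR, exact permutation test p = 0.679). The KPF libraries lay within 1.27-fold, and KPYYF libraries lay on both sides of them. For Noc2l, 452 other annotated genes have similar 3′ sequence, which includes repeats, and its exons overlap those of Samd11 on the opposite strand. Mrto4, a factor that holds the place of the ribosomal stalk protein, differed most among KPYYF libraries, at 6.65 CPM in 4449 and at 57.6 and 71.2 CPM in 4891 and 4938. Mrto4 has 2 annotated pseudogenes of similar 3′ sequence.

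**Figure D3:**
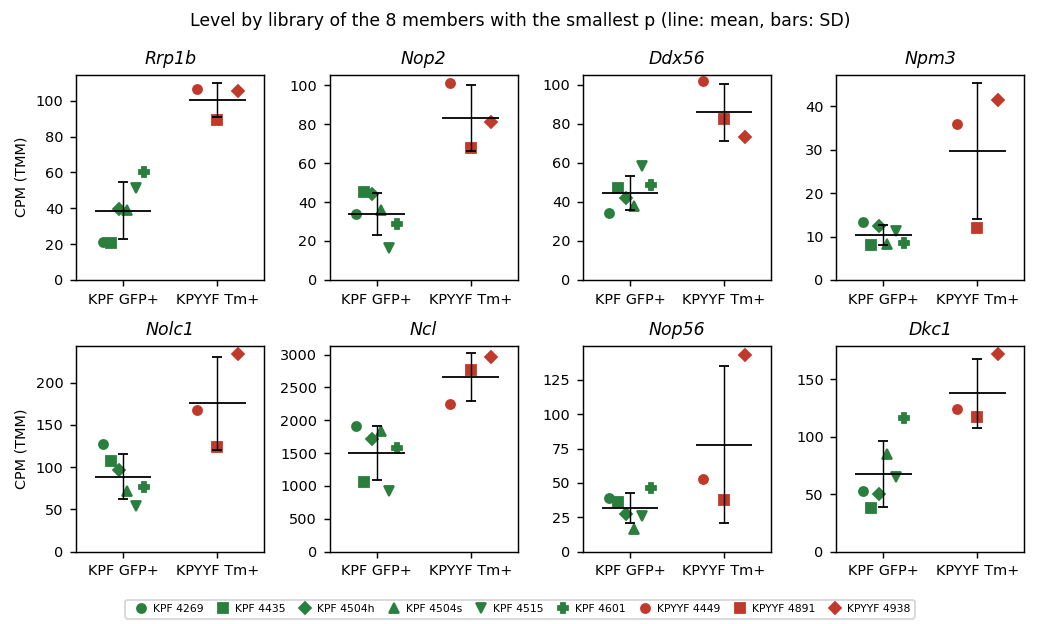
CPM (y axes from 0) of the 8 members with the smallest p, by group (x axes), with 1 marker per library, lines for means and bars for SD. KPF libraries are green and KPYYF libraries red, and the groups do not overlap in Rrp1b, Nop2, Ddx56, Ncl and Dkc1.

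Genes grouped as RNA-binding proteins of the nucleolus had higher means without Yap in all 4 cases, each at an unadjusted p under 0.05. Their median log2 fold change was 0.82. Over all genes tested, 6.10% were higher at this threshold. Ncl encodes nucleolin, which binds nascent ribosomal RNA, and had the highest CPM of the set. In KPF libraries 4269, 4435, 4504h, 4504s, 4515 and 4601 it was at 1909, 1053, 1717, 1829, 924 and 1576 CPM. In KPYYF libraries 4449, 4891 and 4938 it was at 2244, 2760 and 2956 CPM, above all of them. This was a log2 fold change of 0.82 (SE 0.27, adjusted p = 0.155 with edgeR, exact permutation test p = 0.0238). Npm1 encodes nucleophosmin, a chaperone of the granular part of the nucleolus. It was at 340 to 657 CPM in KPF and at 953, 620 and 1034 CPM in KPYYF libraries, so that 4891 overlapped KPF libraries 4269 and 4504s (difference of 0.82 ± 0.28 on the log2 scale, adjusted p = 0.174 with edgeR). Reads of Npm1 can be shared with 7 annotated pseudogenes whose sequence is at least 90% identical near the 3′ end.

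Ddx21 (ENSMUSG00000020075, chromosome 10, 62580251 to 62602281) is an RNA helicase that links polymerase I transcription to rRNA processing. KPF libraries had 99.1, 143, 200, 167, 183 and 196 CPM and KPYYF libraries 232, 263 and 317 CPM, with no overlap. Its log2 fold change was 0.72 (SE 0.27, adjusted p = 0.204 with edgeR, exact permutation test p = 0.0238). Npm3 (ENSMUSG00000056209, chromosome 19, 45747734 to 45749591), a nucleophosmin family member that binds Npm1, had the highest fold change of the 51 members. It was at 13.4, 8.09, 12.4, 8.20, 11.3 and 8.45 CPM in KPF libraries and at 35.9, 11.9 and 41.5 CPM in KPYYF libraries. Libraries 4449 and 4938 were far above the KPF range, while 4891 lay inside it. The log2 fold change was 1.53 (SE 0.48, adjusted p = 0.138 with edgeR and 0.0420 with DESeq2, or 0.0420 to 0.373 over all alternatives, exact permutation test p = 0.0357).

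Box C/D snoRNPs guide 2′-O-methylation of ribosomal RNA. Each of the 4 genes listed was higher at an unadjusted p under 0.05, against 6.10% of all genes tested. Their median log2 fold change was 0.90, and none of the 4 passed the adjustment. Nop56 (ENSMUSG00000027405, chromosome 2, 130274430 to 130279313), a core scaffold protein, was at 38.8, 36.1, 27.0, 16.7, 25.6 and 46.4 CPM in KPF libraries and at 52.8, 37.4 and 143 CPM in KPYYF libraries. Much of its fold change came from library 4938, since 4449 was just above the KPF range and 4891 within it. The log2 fold change was 1.29 (SE 0.44, adjusted p = 0.164 with edgeR, exact permutation test p = 0.0476), and it was 0.51 without library 4938. Nop56 has 6 annotated pseudogenes of similar 3′ sequence and hosts snoRNA genes in its introns.

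Nolc1 (ENSMUSG00000015176, chromosome 19, 46075863 to 46085530), also called Nopp140, is a chaperone of snoRNPs of both classes. It was at 127, 107, 97.0, 71.8, 53.5 and 76.5 CPM in KPF libraries and at 168, 124 and 234 CPM in KPYYF libraries. Only KPYYF library 4891 overlapped the KPF range, and only with 4269 (difference of 0.98 ± 0.31 on the log2 scale, adjusted p = 0.146 with edgeR, exact permutation test p = 0.0357). Fbl (ENSMUSG00000046865, chromosome 7, 28169710 to 28179269), the fibrillarin methyltransferase itself, was at 21.98, 25.2, 21.1, 26.1, 29.9 and 30.03 CPM in KPF libraries and at 34.9, 46.1 and 44.5 CPM in KPYYF libraries. Both groups were tight and did not overlap. Its log2 fold change was 0.70 (SE 0.32, adjusted p = 0.306 with edgeR, exact permutation test p = 0.0119). For Fbl, 5 other annotated genes, of which 4 are pseudogenes, have similar 3′ sequence. Nop58, the other scaffold protein, had a log2 fold change of 0.82 with overlapping groups.

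Box H/ACA snoRNPs guide pseudouridylation, and here the 4 core proteins were unequal. Their log2 fold changes were all above 0, with a median of 0.30. At an unadjusted p under 0.05, 1 was higher, against 6.10% of all genes tested. That gene was Dkc1 (ENSMUSG00000031403, chromosome X, 75095854 to 75109777), the pseudouridine synthase dyskerin, which is also a part of telomerase. It was at 52.7, 37.5, 50.1, 84.9, 64.6 and 117 CPM in KPF libraries and at 124, 117 and 172 CPM in KPYYF libraries. KPF library 4601 and KPYYF library 4891 were nearly equal, and the others were clearly apart. The log2 fold change was 1.02 (SE 0.35, adjusted p = 0.166 with edgeR, exact permutation test p = 0.0238). For Dkc1, 6 other annotated genes have similar 3′ sequence, and its exons overlap those of Mpp1 on the opposite strand. Dkc1 lies on the X chromosome, and all KPYYF libraries had Xist reads. KPF libraries 4435, 4504h and 4504s, which also had them, were at 37.5 to 84.9 CPM. Gar1 (ENSMUSG00000028010, chromosome 3, 129824912 to 129831396), another core protein, was at 178, 64.1, 123, 75.3, 70.3 and 55.1 CPM in KPF and at 100, 76.6 and 121 CPM in KPYYF libraries. KPF library 4269 was the highest of the 9, and the groups overlapped throughout (difference of 0.07 ± 0.38 on the log2 scale, adjusted p = 0.956 with edgeR, exact permutation test p = 0.679). Nhp2 and Nop10 had log2 fold changes of 0.36 and 0.25. The difference in fold change between Dkc1 and its partners was not tested.

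The small subunit processome, the large particle that forms on the precursor around the U3 snoRNA, was mixed. Of 12 members, 9 had a log2 fold change above 0, against 46.7% of all genes tested, and the median was 0.52. At an unadjusted p under 0.05, 3 of them were higher, against 6.10% of all genes. Rrp9 (ENSMUSG00000041506, chromosome 9, 106475963 to 106485424), a protein specific to the U3 snoRNP, was at 22.4, 49.3, 35.6, 30.3, 33.0 and 27.5 CPM in KPF and at 41.2, 69.5 and 88.4 CPM in KPYYF libraries. KPYYF library 4449 alone lay in the KPF range, and only below KPF library 4435. The log2 fold change was 1.01 (SE 0.35, adjusted p = 0.172 with edgeR, exact permutation test p = 0.0238).

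Utp4 (ENSMUSG00000041438, chromosome 8, 106893636 to 106923088), of the subcomplex that joins the precursor first, was at 32.8, 46.6, 34.4, 14.2, 18.0 and 14.0 CPM in KPF libraries. The KPYYF libraries had 58.4, 44.8 and 59.4 CPM, and here too the overlap was with KPF library 4435 only. The log2 fold change was 1.02 (SE 0.43, adjusted p = 0.254 with edgeR, exact permutation test p = 0.0357). Other members of the same subcomplex, Utp15, Wdr43, Wdr75 and Heatr1, had log2 fold changes of 0.82, 0.48, 0.49 and -0.08. Nop14, the third of the group by p, had 0.74. Utp18 (ENSMUSG00000054079, chromosome 11, 93859243 to 93885766), which recruits the RNA exosome, had the lowest fold change of all 51 members. It was at 14.6, 12.8, 24.9, 22.8, 8.52 and 28.3 CPM in KPF and at 9.38, 17.4 and 19.8 CPM in KPYYF libraries. All KPYYF values lay inside the KPF range (difference of -0.26 ± 0.51 on the log2 scale, adjusted p = 0.863 with edgeR, exact permutation test p = 0.643). Imp3 and Imp4, partners in the U3 particle, had 0.57 and -0.16.

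Late factors of the small subunit ran from 0.02 to 0.71, with a median of 0.56 over 5 members. Of these, 1 was higher at an unadjusted p under 0.05, against 6.10% of all genes tested. Tsr1 (ENSMUSG00000038335, chromosome 11, 74898071 to 74909342), a GTPase-like factor that keeps pre-40S particles from translating, was at 128, 87.2, 81.3, 126, 72.1 and 116 CPM in KPF and at 188, 145 and 165 CPM in KPYYF libraries. The groups did not overlap (difference of 0.71 ± 0.27 on the log2 scale, adjusted p = 0.216 with edgeR, exact permutation test p = 0.0238). Nob1 (ENSMUSG00000003848, chromosome 8, 107412486 to 107425051), the nuclease that makes the mature end of the small subunit rRNA, was at 20.7, 21.5, 39.8, 14.1, 20.6 and 12.8 CPM in KPF and at 11.9, 26.4 and 27.3 CPM in KPYYF libraries. Here the highest value was in a KPF library and the lowest in a KPYYF library (difference of 0.02 ± 0.48 on the log2 scale, adjusted p = 0.991 with edgeR, exact permutation test p = 0.976). Ltv1, an export factor, was at 91.9 CPM in KPYYF library 4449 and at 15.7 and 24.99 CPM in 4891 and 4938, against 18.9 to 40.7 CPM in KPF libraries.

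Polymerase I and its initiation factors had a lower median than the groups above except box H/ACA. At an unadjusted p under 0.05, 0 of the 6 members were higher, against 6.10% of all genes tested. Of the 6, 5 had a log2 fold change above 0, against 46.7% of all genes, and the median was 0.39. Rrn3 (ENSMUSG00000022682, chromosome 16, 13780708 to 13814839), the factor through which growth signals license initiation, had the highest, 0.58 (SE 0.34, adjusted p = 0.431 with edgeR, exact permutation test p = 0.0952). It was at 42.8, 58.7, 33.1, 64.9, 48.1 and 93.9 CPM in KPF and at 82.4, 79.3 and 93.7 CPM in KPYYF libraries. KPF library 4601 alone was as high as the KPYYF libraries. Taf1d (ENSMUSG00000031939, chromosome 9, 15306214 to 15316991), a subunit of the promoter selectivity factor, was at 158, 203, 218, 154, 219 and 122 CPM in KPF and at 270, 262 and 218 CPM in KPYYF libraries. KPYYF library 4938, the highest for many other members, was here inside the KPF range (difference of 0.49 ± 0.26 on the log2 scale, adjusted p = 0.387 with edgeR, exact permutation test p = 0.0357). Exons of Taf1d overlap those of 10 other annotated genes on the same strand.

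Ubtf, which bends the ribosomal DNA promoter, had a log2 fold change of 0.47. The polymerase subunits themselves were near 0 or scarce. Polr1a (ENSMUSG00000049553, chromosome 6, 71909053 to 71984935), the largest subunit, was at 92.4, 82.3, 111, 53.1, 90.4 and 36.1 CPM in KPF and at 59.6, 68.9 and 85.5 CPM in KPYYF libraries. The KPYYF values lay within the KPF range, and the log2 fold change was -0.12 (SE 0.36, adjusted p = 0.916 with edgeR, exact permutation test p = 0.940). Polr1b and Polr1e were at means of 9.18 and 7.97 CPM in KPF libraries, with log2 fold changes of 0.31 and 0.17 and standard errors of 0.65 and 0.78. The difference in fold change between the groups by role was not tested, and counts in the smaller groups rest on few genes.

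Genes of the same pathway outside the set also mostly had a fold change above 0. They were listed with earlier results of these data known, so they are not an independent check. Of 92 other ribosome biogenesis genes listed, 91 were analysed here. A log2 fold change above 0 was found for 81 of them, against 46.7% of all genes tested, and the median was 0.47. At an unadjusted p under 0.05, 16 were higher and 0 lower, against 6.10% and 10% of all genes. With the Xist term 7 were higher, against 3.76% of all genes, and 8 in the libraries with Xist reads alone, against 5.09%. Their summed level was 4254 to 5626 CPM in KPF and 6557 to 7263 CPM in KPYYF libraries. At an adjusted p under 0.05, 1 gene was higher, against 0.305% of all genes tested. This was Rcl1, needed for an early cleavage of the precursor, at 46.5 to 77.3 CPM in KPF libraries and at 141, 137 and 196 CPM in KPYYF libraries (difference of 1.34 ± 0.27 on the log2 scale, adjusted p = 0.0357 with edgeR, or 4.98e-04 to 0.151 over all alternatives). Its adjusted p was between 0.057 and 0.151 without KPF library 4435, 4504h, 4504s or 4515 or without KPYYF library 4891 or 4938, and 0.106 with the Xist term. The extremes of this list were Las1l, with a log2 fold change of -0.88, and Dimt1, with 2.26 at no more than 8.44 CPM in any library.

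Genes for ribosomal proteins had lower medians than the 51 members, a difference that was not tested. Of 78 cytosolic ribosomal protein genes tested, 68 had a log2 fold change above 0, against 46.7% of all genes tested, and the median was 0.30. At an unadjusted p under 0.05, 13 were higher and 0 lower, against 6.10% and 10% of all genes. Their summed level overlapped, with 45002 to 56902 CPM in KPF and 53279, 63010 and 68703 CPM in KPYYF libraries. Mitochondrial ribosomes are put together inside mitochondria and not in the nucleolus. Of 78 genes for their proteins, 74 were tested and 56 were above 0, with a median of 0.32. At an unadjusted p under 0.05, 11 were higher and 1 lower, against 6.10% and 10% of all genes. Their sums were 2862 to 3383 CPM in KPF and 3639 to 4653 CPM in KPYYF libraries.

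**Figure D4:**
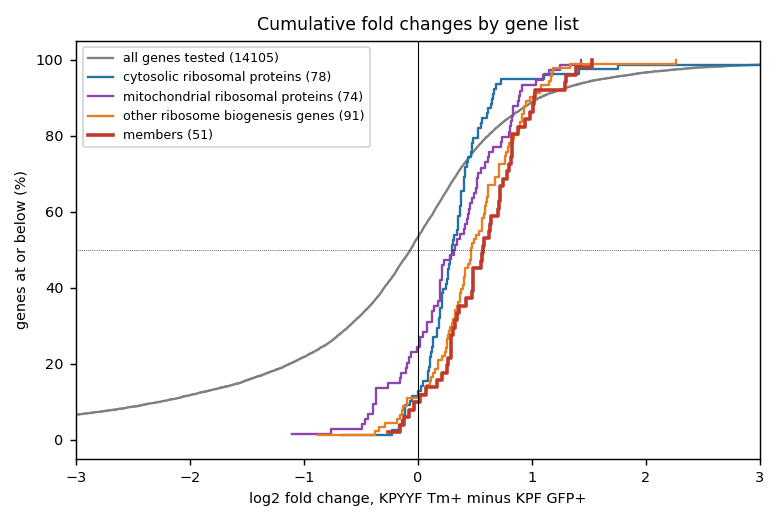
Cumulative share of genes (y axis, percent) at or below each log2 fold change (x axis, KPYYF Tm+ minus KPF GFP+) for the 51 members, the lists of related genes and all 14105 genes tested. The curves cross 50% at 0.57 for the members, 0.47 for other ribosome biogenesis genes, 0.32 for mitochondrial and 0.30 for cytosolic ribosomal proteins, and -0.07 for all genes. The x axis is limited to -3 to 3.

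Myc and its partner were measured in the same libraries. Myc was at 20.9, 8.61, 25.4, 19.4, 15.1 and 9.04 CPM in KPF libraries and at 87.7, 36.1 and 52.2 CPM in KPYYF libraries, with no overlap (difference of 1.84 ± 0.44 on the log2 scale, adjusted p = 0.0631 with edgeR, or 0.00555 to 0.267 over all alternatives). Max was at 84.8 to 152 CPM in KPF and at 164, 164 and 223 CPM in KPYYF libraries (log2 fold change 0.71, adjusted p = 0.193 with edgeR). Mycn was at 1.64 to 3.65 CPM in KPF libraries and at or below 0.328 CPM in KPYYF libraries, near the level of 3 reads. The groups did not overlap, and the log2 fold change of Mycn was -3.75 (SE 1.51, adjusted p = 0.234 with edgeR, or 0.0256 to 0.442 over all alternatives). Mycl had a log2 fold change of -0.05. The part of Myc in the values of the 51 genes was not tested.

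Genes of cell division mostly had higher means as well. Of 12 proliferation genes listed, 11 had a log2 fold change above 0, against 46.7% of all genes tested, and the median was 1.14. At an unadjusted p under 0.05, 7 were higher, against 6.10% of all genes tested, and 0 of the 12 passed the adjustment. Their summed level was 368, 678, 766, 660, 430 and 340 CPM in KPF libraries 4269, 4435, 4504h, 4504s, 4515 and 4601 and 929, 1294 and 1380 CPM in KPYYF libraries 4449, 4891 and 4938. The 3 KPYYF libraries were thus the highest in this sum as well as in that of the 51 ribosome biogenesis genes. Among KPF libraries the order differed between these sums. Library 4269 had the highest KPF sum of the 51 genes, 6004 CPM, with 368 CPM of proliferation genes, and library 4435 had 4220 and 678 CPM. The part of proliferation in the values of the 51 genes was not tested.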

How the data were processed

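RNA of FACS-sorted cells was made into 3′ end libraries (Lexogen QuantSeq Forward) and, per the submitters' processing notes, handled with STAR, HTSeq and build mm10. Versions, annotation and strand setting are not given in the sources used here. The methods text describes BeadChips, but the authors deposited raw counts per Ensembl gene, 1 file per library. Of all reads, 37.3 to 42.0% were on genes, and lines that name no gene were left out. Symbols and positions came from GENCODE release M21 (GRCm38), and 47224 of 47643 identifiers matched.

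The 14105 genes whose counts over all libraries came to 100 or more were tested with edgeR 4.0.16 in R 4.3.3 (TMM, robust quasi-likelihood test, no covariates, Benjamini-Hochberg adjustment over all genes tested, threshold 0.05). The common biological coefficient of variation was 0.8255. P values are two-sided and measure the spread between libraries, and 2 KPF libraries share a mouse number. Exact permutation tests of log2 CPM (prior count 2) used all 84 divisions of the libraries and are unadjusted. A count of 0 allows up to 3 reads, or 0.292 to 0.437 CPM, for counting error only, since reads carried no molecular identifiers.

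Alternatives were DESeq2 1.42.0, limma 3.58.1 (voom with quality weights), RLE and upper quartile scaling, other filters, 4504h and 4504s summed, a Xist term and leaving out each library. The fits without 4504s and 4601, and on the 6 libraries with at least 1000 Xist reads, were chosen after seeing the data. Tools were also run on simulated counts, drawn independently for each library, and the results of that run are not given here. In each of 7 roles, the members with the smallest and largest fold change and the smallest p were described in full. Nop2, Ddx56, Ncl, Npm1, Mrto4 and Ltv1 were singled out after their values were seen. The members and lists were chosen with earlier results of these data known. For 15 members another annotated gene has at least 90% identity over at least 75 of the last 300 bases, which includes repeats, and exons of 22 members overlap another gene, in 20 cases on the opposite strand. Such genes are mentioned above for some of these members only. Levels were not divided by length, since 3′ end reads do not scale with it. 1 gene of the wider pathway list was not analysed here, and an engineered allele that both groups share and a marker gene are not reported here.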

Additional observations from a re-analysis of the deposited data

Results flagged for a closer look

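Nob1 was checked with the other 16 members described in full and the summed level for a library apart from the rest of its group. In KPF library 4504h it was at 39.8 CPM, against 12.8 to 21.5 CPM in the other KPF libraries, a gap of 0.677 of the group's range. Chance can give such a gap among the 18 checked, and how often it does was not computed.

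Reads without a unique alignment, which enter no gene count, were more frequent in every KPYYF library than in any KPF library. They made up 49.2%, 51.9% and 53.4% of reads in KPYYF libraries 4449, 4891 and 4938 and 43.8 to 48.5% in KPF libraries.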

How the results depend on the processing

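The median log2 fold change of the members was 0.48 to 0.70 over the 20 alternatives, with the lowest value without KPYYF library 4938, and 41 to 48 members were above 0. The count at an adjusted p under 0.05 was 4 with DESeq2 and 0 in every other alternative. The count at an unadjusted p under 0.05, 17, was 6 to 20 with each library left out in turn, lowest without KPYYF library 4938 and highest without KPF library 4601, while the share of all genes was 4.77 to 6.57%. The count of members higher without overlap, 8, was 10 to 16 with each library left out, where fewer libraries make an overlap less likely for any gene. It was 15 without KPF 4269, 13 without KPYYF 4449 and 16 without KPYYF 4891, against 5.10%, 8.74% and 7.05% of all genes in the same fits. It was 15 without KPF libraries 4504s and 4601 and 18 in the libraries with Xist reads, against 6.89% and 8.78%.

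Of the members described in full, 5 changed sign under an alternative, each with an adjusted p above 0.6, and the cause was not tested. With limma-voom, Polr1a was at 0.15 and Noc2l at 0.031. Without KPF libraries 4504s and 4601, Gar1 was at -0.10, Utp18 at 0.061, Nob1 at -0.20 and Noc2l at 0.0090. With the Xist term Nob1 was at -0.20, and in the libraries with Xist reads at -0.18. With each library left out in turn, fold changes ran from -0.27 to 0.0077 for Polr1a, -0.091 to 0.36 for Gar1, -0.17 to 0.31 for Nob1 and -0.37 to 0.28 for Noc2l. Polr1e had the smallest count of a member in a library, 20 reads, and an SE of 0.78, and counting error and the spread between libraries were not separated. No paired analysis was possible because the groups share no replicate number.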
